A study of Mus musculus with 36 samples.

Results

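Eosinophils of mouse skin were compared with eosinophils of mouse blood across every gene of the tissue table. The comparison rests on the 3 skin libraries, numbered 1, 2 and 4, and the 4 blood libraries, chosen by their labels, 7 of the 24 libraries of that table and of the 36 samples of the series. Of the 9844 genes deposited for these libraries, 9806 were tested. All 24 libraries held cells labelled total eosinophils from wildtype C57BL/6 mice of 8 to 12 weeks at steady state, with male and female animals pooled, so skin and blood differed in no labelled variable other than the tissue. The libraries were made by Smart-seq2, which copies whole transcripts and was designed for small cell numbers, and given as TPM (a relative abundance, reads scaled by transcript length and library total). The labels do not say whether each replicate came from its own mice, and the p-values speak only for the variation among the libraries given. How cells were freed from each tissue is not given in the sources used here, and tissue and its handling cannot be told apart in this design.

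Eosinophils are granulocytes that mature in bone marrow, pass through blood for a short time and settle in tissues, where they release granule proteins, cytokines, chemokines and lipid mediators. Leaving the blood depends on chemokine receptors, above all CCR3, and on integrins, and survival in tissue depends on the cytokines IL-5, IL-3 and GM-CSF, whose receptors share the chain encoded by Csf2rb. In skin, eosinophils are few at rest and are best known from allergic and parasitic inflammation.

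The eosinophil markers were present in both groups. Siglecf, the sialic acid receptor commonly used to sort mouse eosinophils, had 251, 219 and 161 TPM in the skin libraries and 271, 217, 185 and 221 TPM in the blood libraries, and the groups overlapped. Il5ra, the specific chain of the IL-5 receptor, had 98.9, 88.6 and 81.6 TPM in skin and 105, 86.2, 77.3 and 75.0 TPM in blood. Ccr3, the eotaxin receptor, had 1103, 856 and 845 TPM in skin and 1120.2, 1204, 1232 and 1225 TPM in blood, with every skin library below every blood library, but did not pass the test (adjusted p = 0.0597); it passed with the adjusted p between 0.0019 and 0.046 under 6 of 18 alternatives. Epx, the eosinophil peroxidase of mature granules, was at or below 2.13 TPM in all 7 libraries.

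In the skin libraries 8659 to 8782 genes reached 1 TPM, and 8539 to 8643 in the blood libraries. Because TPM keeps no read totals, the depth behind each value is unknown. Skin replicate 4 stood somewhat apart: its log2 profile correlated with those of the other skin libraries at r = 0.923 and 0.92, against 0.949 between these, and at 0.844 to 0.849 with blood, against 0.81 to 0.832 for the others. These correlations are across genes, which are not independent replicates. Blood libraries carried haemoglobin transcripts, 4.75 to 13.7% of the deposited TPM, against at most 0.156% in skin.

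Of the 9806 genes, 2249 (22.9%) were higher in skin than in blood and 1390 (14.2%) were lower (limma on log2(TPM + 1), two-sided, Benjamini-Hochberg adjusted p under 0.05). Changes are log2 differences between skin and blood relative to the median gene, which lay 0.169 above 0, and they understate the change of low genes. Calls were made before this shift, and the balance of higher and lower calls depended on the scaling: median-ratio scaling gave 1770 higher and 1692 lower, quantile normalization 1613 and 1824, leaving out the haemoglobin genes 1861 and 1638, and leaving out the ribosomal protein genes 1847 and 1524. A change of at least 4 on the log2 scale was seen in 75 higher and 21 lower genes. Without skin replicate 4 there were 2172 higher and 1404 lower genes.

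The 15 largest rises included secreted proteins, the C-type lectin receptors Clec4e and Clec4d, the heat shock proteins Hspa1a and Hsph1, and a transporter. Retnla, a resistin-like secreted protein that is induced by IL-4 and IL-13 in macrophages, rose from 0.71, 4.44, 42.3 and 2.18 TPM in the blood libraries to 3069, 2552 and 2416 TPM in the skin libraries (change 8.63 ± 1.06 SE, adjusted p = 3.13e-07). Blood replicate 3 was the highest of the blood libraries for this gene and still far below every skin library. Clec4e, the C-type lectin Mincle that senses mycobacterial and damaged-cell glycolipids, rose from 2.92, 0, 0.58 and 1.46 to 745, 779 and 399.7 TPM (change 8.11 ± 0.42, adjusted p = 9.15e-14). Slc6a4, the serotonin transporter, rose from 0.42, 0, 0.61 and 0.19 to 114, 141 and 94.0 TPM (change 6.33 ± 0.46, adjusted p = 3.34e-11). Thbs1, the matrix glycoprotein thrombospondin 1, rose from 6.11, 2.22, 9.63 and 8.73 to 1363, 1387 and 1003 TPM. None of these genes overlapped between the groups.

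Among the 15 largest falls, 7 were genes of red blood cells, led by the globin genes. Hbb-bt, a beta globin, was at 10747, 6232, 3969.9 and 13403 TPM in blood and 7.87, 0 and 0 TPM in skin (adjusted p = 3.29e-05). The 4 globin genes are near-identical pairs (Hba-a1 with Hba-a2, Hbb-bs with Hbb-bt), so their separate values are uncertain. Of the 9 measured markers of erythroid cells all 9 were lower in skin, with summed TPM of 1397, 2.18 and 39.8 in skin and 101005, 60253, 39167 and 119060 in blood. Outside that group, Serpinb1a, an inhibitor of neutrophil serine proteases, fell from 188, 175, 138 and 138 to 6.82, 5.95 and 10.8 TPM (change -4.37 ± 0.28, adjusted p = 1.27e-11). G0s2, an inhibitor of the lipase that opens triglyceride stores, fell from 515, 623, 745 and 232 to 39.0, 11.2 and 56.0 TPM (change -4.18 ± 0.44, adjusted p = 5.35e-08). Gmnn, the replication licensing inhibitor geminin, fell from 46.9, 39.9, 61.6 and 57.3 to 1.71, 1.81 and 2.7 TPM, and Bckdha, a subunit of branched-chain keto acid dehydrogenase, fell from 56.9, 42.5, 56.8 and 57.1 to 0.91, 2.25 and 3.73 TPM.

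**Figure D1:**
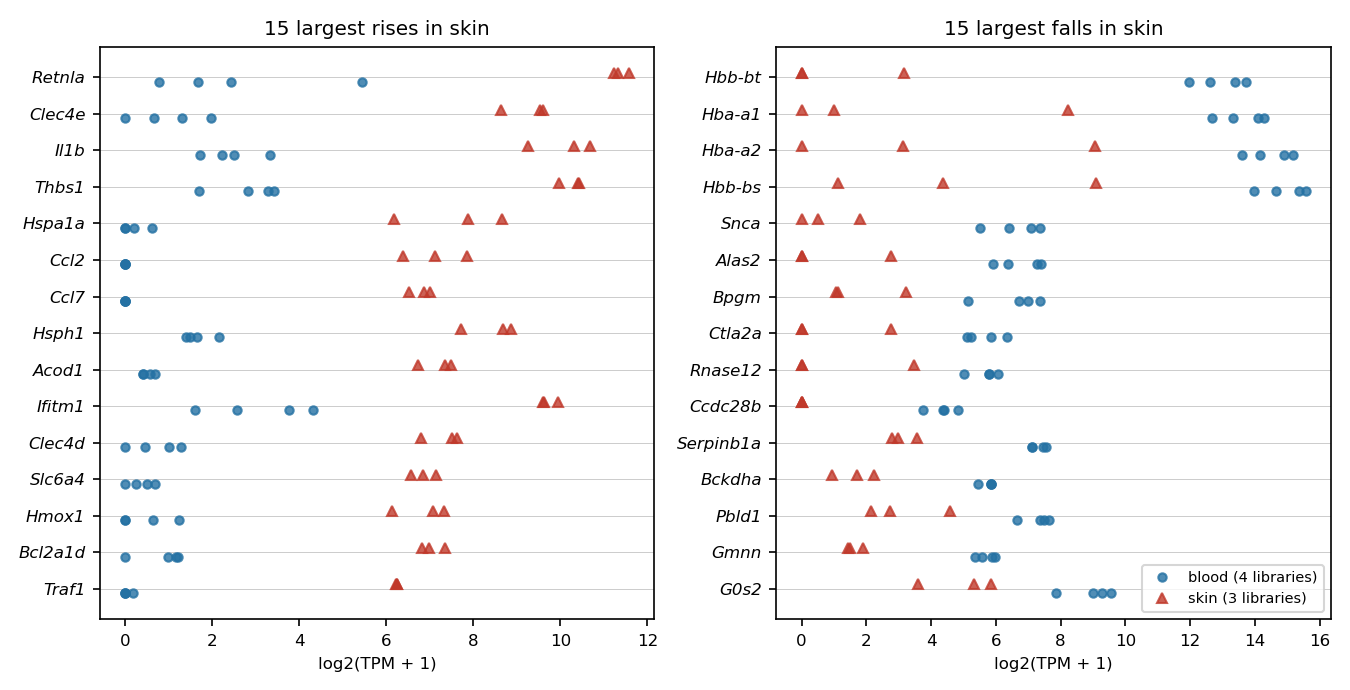
Level on the log2(TPM + 1) scale (x axis) of the 15 genes with the largest rise (left) and the 15 with the largest fall (right) in skin against blood, with 1 circle for each of 4 blood libraries and 1 triangle for each of 3 skin libraries. The groups do not overlap in any of these genes, which the choice required, and Ccl2 and Ccl7 lie at 0 in all 4 blood libraries.

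Gene lists by function, 29 in all, showed where the rises and falls lay. In 2 of them no tested member was called lower: heat shock proteins with cytosolic chaperones, 94.7% of which were higher, and NF-kappaB genes, 85.3% of which were higher. Cytosolic ribosomal proteins lay at the other end, with 65 of 81 lower and 5 higher. The lists were chosen with results of these data known, and their counts are read against the 22.9% higher and 14.2% lower of all genes tested.

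**Figure D2:**
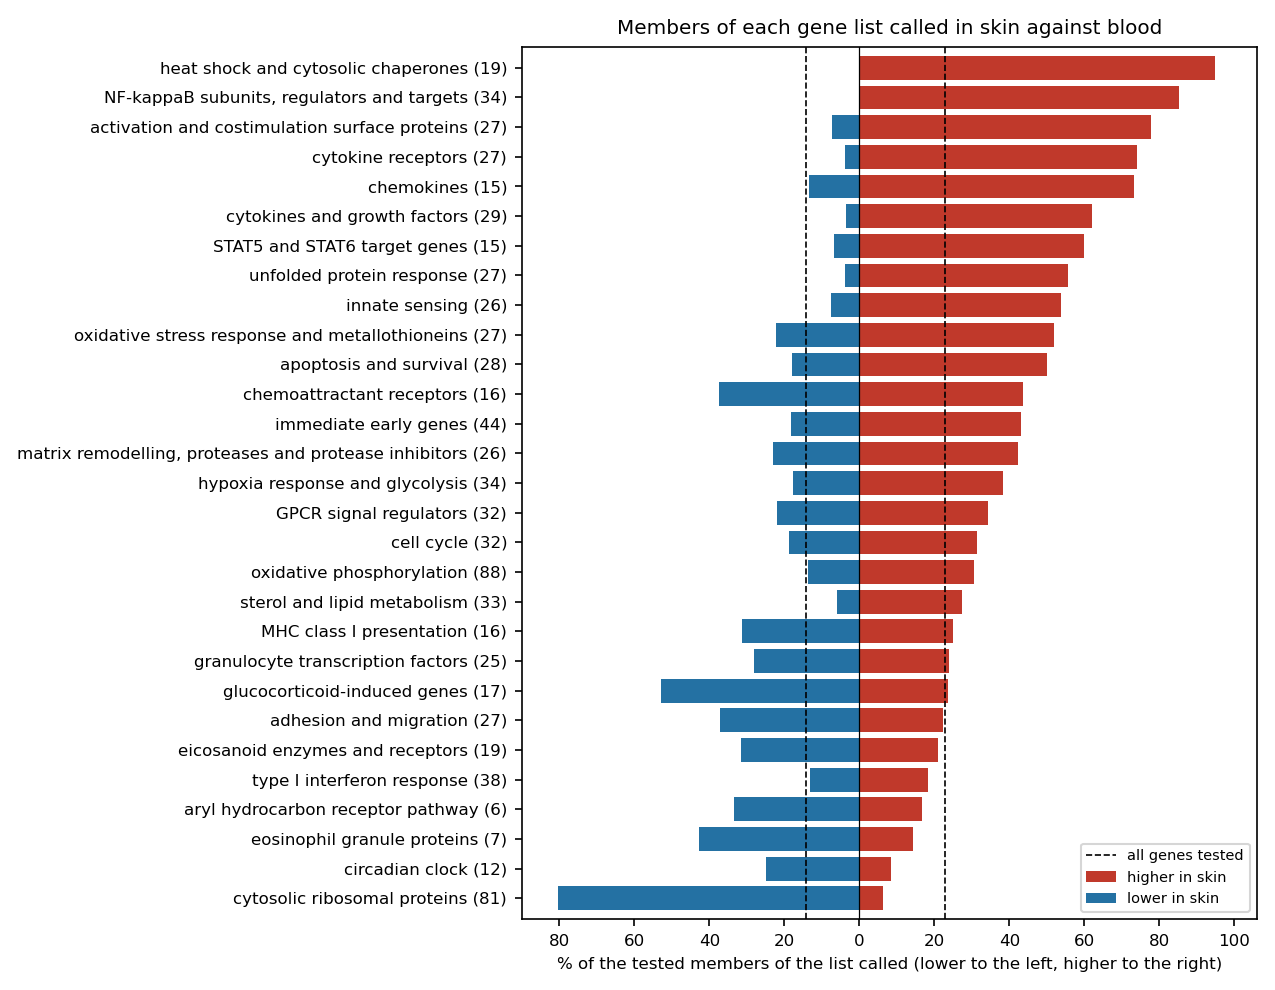
Share of the tested members of each of 29 gene lists called higher (red, to the right) or lower (blue, to the left) in skin against blood, in percent, with the number tested in brackets. Dashed lines mark the shares over all 9806 genes (22.9% higher, 14.2% lower); heat shock (18 of 19) and NF-kappaB genes (29 of 34) reach furthest to the right, ribosomal proteins (65 of 81) furthest to the left.

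Among cytokines and growth factors, 18 of 29 tested members were higher in skin and 1 was lower (median change 1.13, against 0 for all genes by construction). Il1b, the inflammasome-processed cytokine interleukin-1 beta, rose from 3.71, 8.98, 4.63 and 2.31 TPM in blood to 1629, 1274 and 608 TPM in skin (change 7.47 ± 0.39, adjusted p = 9.15e-14). Tnf, tumour necrosis factor, rose from 1.67, 1.15, 3.42 and 3.4 to 337, 299.8 and 63.5 TPM (change 5.68 ± 0.46). In both genes skin replicate 4 had the lowest skin level, still far above the highest blood level. Il1rn, the secreted antagonist of the interleukin-1 receptor, reached 1924, 1593 and 1359.5 TPM in skin from 42.7, 44.5, 61.5 and 47.4 TPM (change 4.85 ± 0.19, adjusted p = 4.14e-16), so agonist and antagonist transcripts rose together. Il6, a cytokine of the acute phase, rose from 0.29, 1.11, 2.61 and 3.62 to 97.0, 80.2 and 60.5 TPM. Il13, a type 2 effector cytokine, was low, at 7.54, 2.66 and 3.3 TPM in skin and 0.54, 0, 0 and 0 TPM in blood (adjusted p = 3.01e-05). Il4, the other type 2 cytokine of the list, was abundant in both, with 432, 422 and 246 TPM in skin and 400.3, 409, 440.1 and 386 TPM in blood, and was not called (adjusted p = 0.4).

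Chemokines showed 11 of 15 tested members higher and 2 lower. Ccl2, Ccl7 and Ccl8 encode monocyte-attracting CC chemokines that also bind CCR2 or CCR3 on other leukocytes, and lie in 1 chemokine cluster of chromosome 11 (GRCm38, Ccl2 at chromosome 11, 82035571 to 82037453, plus strand; Ccl7 at chromosome 11, 82045712 to 82047525, plus strand; Ccl8 at chromosome 11, 82115185 to 82116799, plus strand). Each was listed at 0 in all 4 blood libraries. In skin Ccl2 had 137, 231 and 82.4 TPM (adjusted p = 9.42e-11), Ccl7 had 128, 90.4 and 116 TPM (adjusted p = 1.78e-09) and Ccl8 had 102, 88.2 and 42.1 TPM (adjusted p = 7.32e-12). Neutrophil-attracting CXC chemokines rose as well: Cxcl2 from 33.2, 36.3, 33.2 and 10.8 to 1566, 1780.4 and 1727 TPM (change 5.81 ± 0.34) and Cxcl3 from 1.34, 1.12, 2.46 and 0.5 to 150.4, 184 and 119 TPM (change 5.88 ± 0.34). Cxcl10, an interferon-induced T cell attractant, rose from 0, 0, 2.61 and 0.18 to 105, 93.7 and 73.1 TPM. Ccl9, a CC chemokine of myeloid cells, rose from 70.8, 116, 114 and 87.3 to 2301, 2488 and 1298 TPM (change 4.18 ± 0.34, adjusted p = 1.85e-10). Ccl3 rose from 30.9, 38.0, 73.4 and 9.41 to 1392, 1529.7 and 479 TPM. The most abundant chemokine of both groups was Ccl6, which fell slightly, from 23827, 24597, 23845 and 22467 to 17411, 16353 and 12182 TPM (change -0.81 ± 0.14, adjusted p = 7.93e-04); quantile normalization ended this call (adjusted p = 0.314). The other falling member was Ppbp, a platelet chemokine, at 23.6, 11.4, 16.6 and 18.5 TPM in blood and 0, 0.51 and 1.9 TPM in skin.

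Markers of macrophages and monocytes were also higher in the skin libraries, 6 of 8 tested with 1 lower, Ly6c2, whose call (adjusted p = 0.0424) ended under 8 alternatives (adjusted p between 0.0606 and 0.435, the highest without skin replicate 2). Their summed level was 742, 689.9 and 420.3 TPM in skin against 177, 289.6, 141 and 180 TPM in blood. C1qb, a complement subunit made by tissue macrophages, was listed at 0 in all blood libraries and had 40.8, 48.8 and 7.53 TPM in skin. C1qa was likewise at 0 in blood and had 40.4, 17.3 and 13.0 TPM in skin. Apoe, the lipid carrier abundant in macrophages, rose from 0, 15.3, 1.55 and 1.72 to 277, 318 and 37.9 TPM (adjusted p = 6.62e-06). The part of such cells in the rises of Retnla, Ccl2, Ccl7 and Ccl8 was not tested. Skin replicate 4, which had the lowest C1qa, C1qb and Apoe among the skin libraries, was also the lowest of them for Retnla (2416 TPM), Ccl2 (82.4 TPM) and Ccl8 (42.1 TPM), and lay between the others for Ccl7 (116 TPM). It was the lowest skin library for Siglecf, Il5ra and each heat shock gene named below as well, and what sets this order was not tested. In bulk libraries, more cells of a type and more RNA per cell cannot be told apart.

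Receptors for cytokines mostly rose: 20 of 27 tested were higher and 1 was lower (median change 1.32). Il2rg, the common gamma chain shared by the receptors of IL-2, IL-4 and IL-7, rose from 23.7, 20.8, 19.2 and 17.99 to 551, 416 and 281 TPM (change 4.07 ± 0.24, adjusted p = 5.62e-13). Csf2rb, the common beta chain of the IL-5, IL-3 and GM-CSF receptors, rose from 133, 155, 117 and 117 to 779.8, 804 and 951 TPM (change 2.52 ± 0.17); reads may be shared with its copy Csf2rb2, which rose from 53.4, 59.6, 54.2 and 52.2 to 296, 389 and 429 TPM. The ligand-binding chain Il5ra did not move with it. Il1r2, the decoy receptor of interleukin-1, rose from 1.32, 2.69, 1.93 and 0.46 to 41.7, 23.6 and 27.4 TPM. Il1rl1, the IL-33 receptor ST2, rose from 39.0, 49.7, 58.8 and 35.5 to 149, 153 and 138 TPM (change 1.52 ± 0.31, adjusted p = 1.26e-04). Tnfrsf1b, a TNF receptor, rose from 10.2, 13.9, 10.3 and 7.67 to 78.2, 98.1 and 102 TPM. Il17ra, the receptor of IL-17A and IL-25, was the 1 lower member, from 182, 166, 189 and 139 TPM in blood to 67.7, 60.5 and 96.7 TPM in skin (change -1.35 ± 0.24, adjusted p = 2.76e-04).

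Receptors of chemoattractants divided, with 7 of 16 higher and 6 lower. Ccr1, which binds CCL3 and related chemokines, rose from 30.8, 24.3, 23.3 and 47.7 to 656, 625 and 368 TPM (change 3.93 ± 0.24, adjusted p = 7.85e-13). C3ar1, the receptor of complement fragment C3a, rose from 24.2, 39.2, 34.2 and 39.1 to 254, 247 and 127 TPM, and Ptafr, the receptor of platelet-activating factor, from 117, 143, 110.2 and 136 to 477, 613 and 566 TPM. S1pr1, the sphingosine-1-phosphate receptor known for guiding lymphocytes out of tissue, rose from 0, 1, 0 and 0 to 14.9, 29.7 and 8.43 TPM. On the falling side, Ltb4r1, the leukotriene B4 receptor, went from 125, 170.3, 130.3 and 152 to 32.3, 25.8 and 36.5 TPM (change -2.33 ± 0.20, adjusted p = 2.86e-09). Ptgdr2, the prostaglandin D2 receptor CRTH2, fell from 15.2, 20.4, 9.19 and 18.2 to 2.97, 2.54 and 3.65 TPM. Cxcr4, the receptor that retains granulocytes in bone marrow, was at 81.6, 95.5, 83.8 and 66.3 TPM in blood and 11.4, 9.95 and 85.8 TPM in skin, with skin replicate 4 at the blood level; it was called lower (adjusted p = 0.00162) except where only skin and blood libraries were fitted (adjusted p = 0.0665).

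Of 27 surface proteins of activation and costimulation, 21 were higher and 2, Cd24a and Ly6c2, were lower (median change 2.05); the lower count was 1 without skin replicate 1 or 2 or blood replicate 1, 2 or 4. Clec4d and Clec4n, which encode further C-type lectin receptors of fungal and mycobacterial glycans, lie beside Clec4e on chromosome 6 (GRCm38, Clec4n at chromosome 6, 123229843 to 123247021, plus strand; Clec4d at chromosome 6, 123262111 to 123275265, plus strand; Clec4e at chromosome 6, 123281789 to 123289870, minus strand), and the 3 neighbours rose together. Clec4d went from 1.45, 0.37, 0 and 1.02 to 181, 198 and 111 TPM and Clec4n from 0.29, 0.45, 0 and 0 to 36.1, 15.5 and 16.1 TPM. Lilrb4a, an inhibitory receptor of myeloid cells, rose from 68.3, 87.5, 81.2 and 89.9 to 1491, 1466 and 476 TPM (change 3.45 ± 0.29). Cd80, a ligand of CD28 and CTLA-4, rose from 6.02, 12.9, 2.35 and 9.52 to 47.6, 55.7 and 55.5 TPM, and Cd274, which encodes the checkpoint ligand PD-L1, from 4.9, 3.08, 1.92 and 2.54 to 16.2, 20.5 and 16.5 TPM. Cd9, a tetraspanin, was abundant in both and rose from 606, 676, 597 and 773 to 3462, 3626 and 2131 TPM (change 2.01 ± 0.15). Cd55, which limits complement on the cell surface, rose from 28.4, 20.5, 21.3 and 19.5 to 549, 524 and 164 TPM, with skin replicate 4 well below the others. Cd24a, a glycosylated surface anchor, was one of the 2 falling members, from 1917, 1944, 1667 and 1956 to 1387, 1118 and 862 TPM. In the innate sensing list, which contains the same lectins, 14 of 26 were higher and 2 lower, among them Cd14, the co-receptor of lipopolysaccharide, at 0.92, 0, 0 and 0.58 TPM in blood and 17.8, 4.81 and 9.06 TPM in skin.

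NF-kappaB is a family of dimeric transcription factors held in the cytoplasm by inhibitors and released by receptors of TNF, interleukin-1 and microbial products; its inhibitors are among its own target genes. Of 34 tested subunits, regulators and targets, 29 were higher and 0 lower by limma (0 lower at an unadjusted p under 0.05, and 1 lower under quantile normalization), with a median change of 2.30. Their summed level was 10066, 10190 and 5675 TPM in skin and 1062, 1210, 1147 and 941 TPM in blood. Among the subunits, Relb rose from 10.7, 13.8, 9.12 and 11.5 to 344, 317 and 177 TPM (change 4.30 ± 0.28, adjusted p = 3.99e-12) and Nfkb2, its p100 partner, from 10.9, 16.0, 9.25 and 12.6 to 305, 275 and 185 TPM (change 4.10 ± 0.25). The subunits of the classical dimer rose less, Nfkb1 by 2.38 and Rela by 1.34. Inhibitors rose too: Nfkbia, which encodes I-kappaB alpha, from 339, 404, 344 and 259 to 4757, 5234 and 2304 TPM (change 3.36 ± 0.22, adjusted p = 2.94e-12), and Tnfaip3, the ubiquitin-editing enzyme A20, from 56.5, 48.6, 40.9 and 16.3 to 412, 479 and 182 TPM. Bcl3, a nuclear I-kappaB protein, rose from 1.45, 1.74, 0.24 and 0.23 to 105, 90.6 and 122 TPM, and Traf1, a signalling adaptor of TNF receptors, from 0, 0.13, 0 and 0 to 74.4, 75.4 and 74 TPM. Traf1 was nearly equal in the 3 skin libraries and Bcl3 was highest in replicate 4, whereas Tnf and Nfkbia were lowest there.

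The 250 bases before the transcription start (RefSeq, GRCm38.p6) were searched on both strands for the NF-kappaB consensus. It was found before 11 of the 26 higher members of the list that matched the table (42.3%), and before 829 of 7962 tested genes with a window (10.4%). The list includes known NF-kappaB targets, so its larger share follows from how it was chosen and is no result about skin. Over all genes called higher the share was 229 of 1831 (12.5%), and over all called lower 113 of 1110 (10.2%). The windows of Nfkb2 (chr19:46304487-46304736, plus strand), Tnip3 (chr6:65590148-65590397, plus strand), Nfkbia (chr12:55492648-55492897, minus strand) and Tnfaip3 (chr10:19015411-19015660, minus strand) show where the matches lie. They are the 4 most raised members with a match, chosen after the matches were seen; the 4 most raised members of the list, Bcl2a1d, Traf1, Bcl3 and Tnf, had no match in the window. Each runs 5′ to 3′ in the direction of the gene and ends at the base before the start, with matches in capitals.
Nfkb2: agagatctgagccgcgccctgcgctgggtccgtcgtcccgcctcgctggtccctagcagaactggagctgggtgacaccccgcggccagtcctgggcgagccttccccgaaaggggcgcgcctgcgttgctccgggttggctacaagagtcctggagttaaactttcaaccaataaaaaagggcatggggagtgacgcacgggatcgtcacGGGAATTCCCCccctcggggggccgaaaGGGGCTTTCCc
Tnip3: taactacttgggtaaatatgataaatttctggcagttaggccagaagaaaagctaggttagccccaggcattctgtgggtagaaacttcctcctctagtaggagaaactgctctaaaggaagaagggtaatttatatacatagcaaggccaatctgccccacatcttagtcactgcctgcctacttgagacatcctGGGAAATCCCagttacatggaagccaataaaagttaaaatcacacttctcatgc
Nfkbia: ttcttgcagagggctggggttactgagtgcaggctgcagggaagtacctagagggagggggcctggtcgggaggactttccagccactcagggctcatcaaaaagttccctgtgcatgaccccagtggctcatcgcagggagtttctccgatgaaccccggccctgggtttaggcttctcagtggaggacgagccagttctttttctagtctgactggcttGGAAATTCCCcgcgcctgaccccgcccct
Tnfaip3: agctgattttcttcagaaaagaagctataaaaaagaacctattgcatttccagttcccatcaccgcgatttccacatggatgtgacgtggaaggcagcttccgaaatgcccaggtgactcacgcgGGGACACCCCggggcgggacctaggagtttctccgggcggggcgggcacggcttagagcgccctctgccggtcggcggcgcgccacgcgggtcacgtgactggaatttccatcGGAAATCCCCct
In Nfkb2 the first run of capitals holds 2 overlapping matches. A match of letters is a description of the window and not a measured site. Tnip3, a further partner of A20, rose from 0, 0, 0.32 and 0 to 19.6, 23.1 and 6.25 TPM (adjusted p = 7.43e-06).

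Immediate early genes, transcribed within minutes of many stimuli, moved both ways: 19 of 44 were higher and 8 lower. Ier3, a stress-induced survival gene, rose from 5.52, 24.3, 6.37 and 4.58 to 168, 199 and 383 TPM (change 4.53 ± 0.39, adjusted p = 4.73e-10) with its highest value in skin replicate 4. Atf3, a stress transcription factor, rose from 0.78, 0.24, 3.06 and 0 to 31.3, 47.3 and 20.4 TPM, and Jun, an AP-1 subunit, from 8.01, 5.17, 9.72 and 5.03 to 34.9, 38.2 and 33.1 TPM. Fos, the other classical AP-1 subunit, was at 384, 815 and 822 TPM in skin and 861, 676, 743 and 273 TPM in blood and was not called (adjusted p = 0.867). Egr1, a zinc finger factor, had 46.3, 70.3 and 346 TPM in skin and 40.4, 62.0, 61.2 and 1.55 TPM in blood. Its higher call (adjusted p = 0.0296) ended under 7 alternatives, with the adjusted p between 0.0508 and 0.238. These included leaving out skin replicate 4 (0.238) or blood replicate 4 (0.136) and fitting only skin and blood libraries (0.23). Klf2, a factor of quiescent circulating leukocytes, fell from 529, 669, 739.6 and 319 to 36.6, 32.4 and 166 TPM (change -3.35 ± 0.43, adjusted p = 1.92e-06). Myc fell from 4.77, 9.22, 8 and 9.38 to 2.37, 0.28 and 0.52 TPM.

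Of 17 glucocorticoid-induced genes, 9 were lower in skin and 4 higher (median change -1.05). The falling members included genes often used to read the hormone. Tsc22d3, which encodes GILZ, fell from 951, 1136, 1234 and 1057 to 236, 232 and 254 TPM (change -2.34 ± 0.17, adjusted p = 1.24e-10). Sgk1, a serum- and glucocorticoid-regulated kinase, fell from 180.1, 142, 161 and 138 to 17.5, 25.3 and 44.5 TPM (change -2.64 ± 0.26), Zbtb16, a zinc finger repressor, from 16.8, 22.0, 14.2 and 19.9 to 5.51, 1.86 and 6.3 TPM, and Per1, a clock gene, from 15.7, 20.9, 22.8 and 8.47 to 3.46, 3.51 and 6.14 TPM. The 4 that rose were Mt1, Mt2, Il1r2 and Errfi1. Genes of this list, rising or falling, can also respond to other signals, and a change in the hormone signal was not tested. Genes induced by STAT5 and STAT6, the factors of the IL-5 and IL-4 receptors, were higher in 9 of 15 cases and lower in 1. The higher count was 6 under median-ratio scaling, under quantile normalization, without haemoglobin or ribosomal protein genes and without skin replicate 4. Pim2, a survival kinase, rose from 8.19, 5.56, 2.96 and 8.08 to 193, 161 and 187 TPM (change 4.56 ± 0.51, adjusted p = 5.30e-08). Cish, a feedback inhibitor of STAT5, rose from 15.6, 16.9, 7.79 and 24.8 to 238, 232 and 95.6 TPM.

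Heat shock proteins and their cochaperones fold and refold proteins in the cytosol and are induced by the factor HSF1 under heat, oxidative and other proteotoxic stress. All 18 called members of the 19 tested were higher in skin (median change 3.38), under median-ratio scaling and quantile normalization as well, and 0 were lower by limma (0 lower at an unadjusted p under 0.05). Their summed level was 22543, 23028 and 13207 TPM in skin and 1480, 1529, 1146 and 1182 TPM in blood. Hspa1a, the inducible HSP70, rose from 0, 0.15, 0 and 0.53 to 236, 403 and 71.2 TPM (change 7.20 ± 0.63, adjusted p = 8.17e-10); its copy Hspa1b, with which reads may be shared, rose from 0, 0.16, 0 and 0 to 15.03, 21.2 and 8.57 TPM. Hsph1, the nucleotide exchange factor HSP110, rose from 2.14, 3.44, 1.82 and 1.64 to 408, 465 and 208 TPM (change 6.57 ± 0.65). Hspa8, the constitutive HSC70, was the most abundant member and rose from 558, 583, 404 and 469 to 9421, 9155 and 4261 TPM (change 3.67 ± 0.28, adjusted p = 7.00e-11), and Dnaja1, its J-domain partner, from 277, 290, 146 and 202 to 5559, 5706 and 3161 TPM (change 4.22 ± 0.23). The 2 cytosolic HSP90 genes rose, Hsp90aa1 from 132, 88.9, 100.5 and 70.7 to 1370.0, 1416 and 1174 TPM and Hsp90ab1 from 259.6, 324, 242 and 205 to 3066, 3254 and 2692 TPM. Stip1, which joins HSP70 to HSP90, rose from 13.1, 8.38, 3.88 and 7.41 to 318, 321 and 180.3 TPM. Hsf1 itself had 36.3, 27.3 and 26.5 TPM in skin and 27.9, 7.44, 28.0 and 8.75 TPM in blood, with overlap, and was the 1 member not called (adjusted p = 0.0545; 0.0148 without blood replicate 3, with 4 of 18 alternatives under 0.05). Skin replicate 4 had the lowest level of each heat shock gene named here.

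The heat shock element, searched on both strands as GAANNTTCNNGAA, lay before 2 of 14 higher members with a window, Hspd1 and Hspe1 (14.3%), and before 35 of 7962 tested genes (0.44%). The list is of heat shock genes, so its larger share follows from how it was chosen. Over all genes called higher the share was 12 of 1831 (0.655%). Hspd1 and Hspe1 encode the mitochondrial chaperonin HSP60 and its cochaperonin HSP10 and share a promoter region, so their matches may not be independent. This element was not among the motifs planned at the outset. The window of Hspe1 (chr1:55087898-55088147, plus strand) holds 2 overlapping matches, in capitals.
Hspe1: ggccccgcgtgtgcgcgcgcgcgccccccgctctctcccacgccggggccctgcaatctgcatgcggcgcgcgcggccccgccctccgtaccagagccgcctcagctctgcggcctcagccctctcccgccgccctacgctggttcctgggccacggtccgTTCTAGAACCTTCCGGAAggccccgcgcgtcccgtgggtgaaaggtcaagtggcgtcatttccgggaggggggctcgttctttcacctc
Hspe1 rose from 22.3, 23.99, 20.4 and 11.4 to 444, 561 and 436 TPM (change 4.42 ± 0.41, adjusted p = 1.67e-09) and Hspd1 from 34.0, 55.1, 60.8 and 63.0 to 390.3, 444 and 306 TPM (change 2.67 ± 0.29). The 3 most raised members, Hspa1a, Hsph1 and Stip1, had no match to this spelling in the window.

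**Figure D3:**
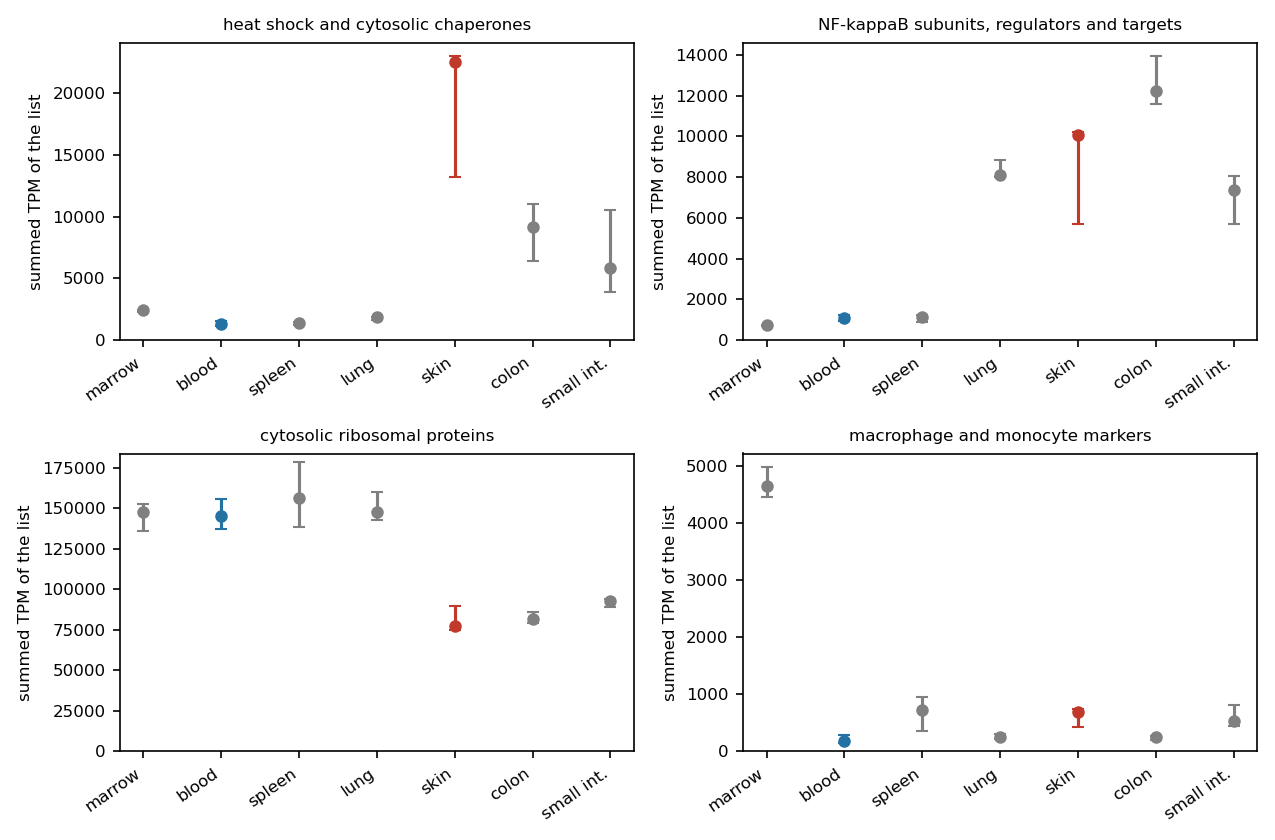
Summed TPM of 4 gene lists in total eosinophils of 7 tissues; points are medians over 3 or 4 libraries and bars run from the lowest to the highest library, with skin in red and blood in blue. Heat shock genes are highest in skin, at 13207 to 23028 TPM, while NF-kappaB genes are high in lung, skin, colon and small intestine, ribosomal proteins are low in skin, colon and small intestine, and macrophage markers are highest in bone marrow.

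Genes of the unfolded protein response, the stress programme of the endoplasmic reticulum, were higher in 15 of 27 cases and lower in 1, with smaller changes (median 0.73). Herpud1, a factor of protein removal from that compartment, rose from 154, 125, 97.3 and 115 to 802, 679 and 564 TPM (change 2.30 ± 0.23). Hspa5, the chaperone BiP, rose from 92.0, 89.6, 89.2 and 83.1 to 253, 259.6 and 169.9 TPM (change 1.16 ± 0.17, adjusted p = 6.06e-07) and Atf4, the factor of the integrated stress response, from 162, 152, 148 and 138 to 460.2, 476 and 347 TPM (change 1.33 ± 0.20). Trib3, an inhibitory pseudokinase induced by ATF4, was the lower member, at 1.45, 3.82, 8.54 and 2.24 TPM in blood and 0, 0.7 and 0 TPM in skin.

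Genes of oxidative stress, iron and metal handling were higher in 14 of 27 cases and lower in 6. Hmox1, which degrades heme, rose from 1.36, 0, 0.57 and 0 to 134, 161 and 69.2 TPM (change 6.21 ± 0.53, adjusted p = 5.88e-10). Fth1, the ferritin heavy chain, was among the most abundant transcripts and rose from 2229.9, 2325, 2189 and 2094 to 24322, 31659 and 13484 TPM (change 3.13 ± 0.19, adjusted p = 6.49e-13). Ftl1, the light chain, rose less, from 3415, 3565, 2815 and 3351 to 8257, 9169 and 6217 TPM (change 1.08 ± 0.19). The metallothionein Mt1 rose from 0, 2.03, 0 and 0 to 129, 146 and 27 TPM, and Mt2 was listed at 0 in all blood libraries and had 27.1, 58.2 and 26.9 TPM in skin. Slc7a11, the cystine importer, rose from 11.8, 7.95, 12.2 and 18.04 to 68.5, 92.2 and 141 TPM. Nqo1, a quinone reductase and classical target of NRF2, fell from 15.4, 13.1, 8.11 and 21.5 to 0, 1.29 and 1.21 TPM (change -3.27 ± 0.38, adjusted p = 4.00e-07), so targets usually listed together moved apart.

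Among apoptosis and survival genes 14 of 28 were higher and 5 lower; quantile normalization left 9 higher. The BCL2 family members of the Bcl2a1 cluster rose, Bcl2a1b from 32.8, 27.4, 51.6 and 47.8 to 900.3, 785 and 532 TPM and Bcl2a1d from 1.25, 0.97, 0 and 1.31 to 162, 126 and 112 TPM, but these copies are near-identical and their separate values uncertain. Mcl1, another survival member, fell from 494, 513, 476 and 392.04 to 266, 232 and 391 TPM (change -0.86 ± 0.14, adjusted p = 4.26e-04). Fas, a death receptor, rose from 118, 93.0, 93.2 and 84.0 to 762, 738 and 687 TPM (change 2.74 ± 0.29, adjusted p = 1.32e-08). Apaf1, the scaffold of the apoptosome, fell from 78.0, 41.8, 33.5 and 38.7 to 4.19, 8.94 and 12.5 TPM. Cdkn1a, the cell cycle inhibitor p21, rose from 26.6, 37.7, 33.5 and 19.1 to 677, 725 and 702 TPM (change 4.41 ± 0.24, adjusted p = 1.46e-13), with nearly equal skin libraries. Cdkn2d, another inhibitor of cyclin-dependent kinases, fell from 99.4, 116, 106 and 64.1 to 21.3, 13.6 and 7 TPM.

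Adhesion and migration genes had more falls than rises, 10 against 6 of 27. Itgal, the alpha chain of LFA-1, fell from 203, 198, 213 and 205 to 51.4, 42.0 and 72.5 TPM (change -2.07 ± 0.16, adjusted p = 6.77e-10), and Itga4, the alpha chain of VLA-4, which binds VCAM-1, from 192, 161, 201 and 173 to 52.9, 42.6 and 78.7 TPM (change -1.84 ± 0.21). Selplg, the selectin ligand PSGL-1 used in rolling, fell from 731, 852, 803 and 711 to 220.2, 249.41 and 328 TPM (change -1.72 ± 0.18), and Pecam1, an adhesion molecule of transmigration, from 44.0, 34.8, 53.4 and 34.4 to 6.59, 11.3 and 25.8 TPM. Itgb2, the beta chain shared by LFA-1 and Mac-1, rose from 304, 279.9, 245 and 257 to 739.7, 643 and 369.5 TPM. Itga5, the alpha chain of the fibronectin receptor, was higher in skin, at 27.2, 23.99 and 13.7 TPM against 2.07, 1.94, 1.2 and 13.1 TPM, with blood replicate 4 close to the lowest skin library. Icam1, the ligand of LFA-1 and an NF-kappaB target, rose from 18.8, 31.1, 28.9 and 25.9 to 188, 163 and 59.5 TPM.

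Genes of matrix remodelling, proteases and their inhibitors were higher in 11 of 26 cases and lower in 6. Tgm2, the protein crosslinking enzyme transglutaminase 2, rose from 15.7, 14.7, 19.3 and 10.7 to 1119, 1119.6 and 519.9 TPM (change 5.61 ± 0.25, adjusted p = 9.33e-15). Serpinb2, an intracellular inhibitor of plasminogen activators, rose from 6.2, 18.1, 13.4 and 22.6 to 1289.7, 1021 and 514 TPM (change 5.73 ± 0.29), and Adam8, a sheddase of leukocytes, from 364, 434, 345 and 303 to 1228, 1558 and 985 TPM. Mmp9, gelatinase B, fell from 503, 598, 632 and 452 to 196, 171 and 166 TPM (change -1.77 ± 0.15, adjusted p = 3.65e-09), and Slpi, an inhibitor of leukocyte proteases, from 1745, 1866, 1760.4 and 1656 to 414, 352 and 697 TPM.

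Eicosanoid genes moved both ways, with 4 of 19 higher and 6 lower. Lipoxygenases fell, Alox15, the lipoxygenase that gives hydroxy fatty acids and lipoxins, from 722, 875, 723 and 591 to 410.0, 324 and 250.2 TPM (change -1.33 ± 0.16, adjusted p = 2.00e-06), and Alox5, which makes the leukotriene precursor, from 235, 228, 218 and 179 to 159.9, 107 and 95.4 TPM (change -1.03 ± 0.16). Ptgs2, the inducible cyclooxygenase of prostaglandin synthesis, rose from 0.18, 0.19, 0.54 and 0.26 to 28.1, 40.8 and 31.0 TPM (change 4.55 ± 0.38, adjusted p = 3.63e-10). Of 7 granule protein genes, 1 was higher and 3 were lower. Ear6, an eosinophil-associated ribonuclease, fell from 172, 112, 90.0 and 159.7 to 31.7, 15.3 and 34.2 TPM; Ear1 and Ear2, near-identical copies with uncertain separate values, fell by 4.11 and 4.04 on the log2 scale. Prg2, the major basic protein, was at 231, 246 and 139 TPM in skin and 63.9, 81.7, 63.5 and 103.03 TPM in blood (adjusted p = 0.0167), a call that ended under median-ratio scaling (adjusted p = 0.0529), quantile normalization (0.0668) and without skin replicate 1 (0.0636) or 2 (0.0739). Prg3, its homologue, overlapped between groups.

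Interferon-response genes were higher in 7 of 38 cases and lower in 5, shares below those of all genes, and the lower count was 10 without skin replicate 4, 3 without skin replicate 2 or blood replicate 4, 9 under median-ratio scaling and 8 under quantile normalization. The Ifitm genes, which encode membrane proteins that restrict virus entry, made up 3 of the rises, led by Ifitm1 from 19.1, 2.05, 12.6 and 4.91 to 783, 770.1 and 983 TPM (change 6.48 ± 0.45, adjusted p = 1.34e-11). Irf1, a factor induced by interferon gamma, fell from 136, 155, 173 and 92.7 to 33.4, 25.8 and 30.3 TPM (change -2.32 ± 0.30, adjusted p = 2.82e-06). In MHC class I presentation the parts moved apart: 4 of 16 were higher and 5 lower. H2-K1, a classical heavy chain, rose from 1272, 1558, 1310.1 and 1476 to 4247, 3829 and 3503 TPM (change 1.29 ± 0.14), and H2-D1 by 0.50. The immunoproteasome subunits fell, Psmb9 from 83.7, 129.6, 102.74 and 90.3 to 21.2, 12.0 and 24.7 TPM (change -2.54 ± 0.32), Psmb8 from 322, 424, 335 and 295 to 122, 123 and 112 TPM, and Psmb10 by 1.64, as did the peptide transporter Tap1, from 67.2, 78.3, 71.3 and 74.6 to 16.8, 15.6 and 36.4 TPM.

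Hypoxia and glycolysis genes were higher in 13 of 34 cases and lower in 6. Hif1a, the oxygen-regulated factor, rose from 27.3, 32.2, 25.5 and 16.4 to 247, 238 and 274 TPM (change 3.13 ± 0.20, adjusted p = 1.61e-12) and Ero1l, an oxidase of the endoplasmic reticulum, from 7.33, 12.0, 18.6 and 12.6 to 124, 128 and 84.8 TPM. Gapdh, a glycolytic enzyme often used as a reference gene, rose from 867, 766, 728 and 889.6 to 3489, 2802 and 1331 TPM (change 1.37 ± 0.20), whereas Ldha, lactate dehydrogenase, was at 903, 849 and 821 TPM in skin and 919.9, 931, 860.1 and 733 TPM in blood and was not called. Abca1, the exporter of cholesterol, rose from 0.78, 2.24, 2.74 and 1.58 to 27.5, 38.6 and 25.9 TPM (change 3.34 ± 0.36, adjusted p = 1.87e-08). Of 33 sterol and lipid genes, 9 were higher and 2 lower, or 5 higher without skin replicate 2. Oxidative phosphorylation genes had no stable direction, with 27 of 88 higher and 12 lower in the main comparison, 16 and 17 under median-ratio scaling and 11 and 23 under quantile normalization.

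Cytosolic ribosomal protein genes were lower in 65 of 81 cases (median change -0.96), and they held 15.8 to 19% of the deposited TPM in blood and 8.4 to 11.3% in skin. Rps27a, a ubiquitin-ribosomal fusion, fell from 7416, 7403, 7913 and 7261 to 1807, 1845 and 3465 TPM (change -1.90 ± 0.15, adjusted p = 1.94e-09). The summed level of the list was 74849 to 89788 TPM in skin, 78950 to 86137 TPM in colon and 88882 to 94006 TPM in small intestine, against 137043 to 155833 TPM in blood and 142627 to 159980 TPM in lung.

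Granulocyte transcription factors were higher in 6 of 25 cases, a share near that of all genes, and lower in 7; the higher count was 3 under median-ratio scaling, under quantile normalization and where only skin and blood libraries were fitted. Id2, an inhibitor of E proteins, rose from 476, 491, 519 and 516 to 2479, 2443 and 1586 TPM (change 1.92 ± 0.17, adjusted p = 3.46e-10), and Irf5, a factor of inflammatory cytokine genes, from 43.6, 53.7, 50.01 and 37.9 to 309, 389 and 122 TPM. Ikzf2, the Ikaros family member Helios, fell from 77.7, 54.3, 80.3 and 78.4 to 8.3, 9.57 and 14.2 TPM (change -2.84 ± 0.23). Cebpe, the factor of granule genes, had 248, 234 and 402 TPM in skin and 277, 240.3, 253 and 188 TPM in blood, and Spi1, the myeloid factor PU.1, 200.2, 238 and 257 and 203, 292, 184 and 231 TPM; both overlapped and were not called. Regulators of G protein signals were higher in 11 of 32 cases and lower in 7. Crem, a cyclic AMP-responsive modulator, rose from 5.6, 2.61, 1.67 and 8.42 to 160.2, 332 and 181 TPM (change 5.26 ± 0.38, adjusted p = 2.03e-11). The adenosine receptors Adora2a, from 2.2, 0, 1.13 and 0.62 to 38.0, 36.8 and 28.3 TPM, and Adora2b, from 0, 1, 0 and 1.37 to 31.3, 51.5 and 6.91 TPM, and the orphan receptor Gpr35, from 1.91, 1.59, 2.15 and 0.36 to 56.5, 91.2 and 51.7 TPM, rose, as did Pde4b, the phosphodiesterase that degrades cyclic AMP, from 57.4, 63.0, 66.8 and 49.0 to 266, 320.2 and 169.6 TPM.

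Markers of other cell types that could accompany eosinophils were read in every library. Keratinocyte markers, 5 of 18 measured, summed to 98.1, 157 and 42.5 TPM in skin and 40.2, 26.6, 36.9 and 29.1 TPM in blood. Of 4 tested, 2 were higher, Sfn and Dmkn, and 0 lower. The Dmkn call ended where only skin and blood libraries were fitted (adjusted p = 0.0746). Fibroblast, endothelium and mural cell markers summed to 14.2, 58.9 and 31.9 TPM in skin and 12.5, 14.1, 16.4 and 8.53 TPM in blood. Of 3 tested, 1 was higher, Col1a2, a call that ended without skin replicate 2 (adjusted p = 0.144) and with a pseudocount of 5 (0.0659). Hdc, histidine decarboxylase, which makes histamine and is listed with mast cells and basophils, rose from 9.97, 6.82, 10.7 and 3.13 to 349, 299.7 and 518 TPM (change 5.40 ± 0.25, adjusted p = 1.37e-14). In the same skin libraries the mast cell protease Cpa3 was at 0, 0 and 21.0 TPM and the IgE receptor chain Fcer1a at 0, 0 and 10.6 TPM. Hdc was highest in the skin library that had both above 0. A value of 0 may be a gene not sampled, and 6 of the 13 listed markers were measured. The source of Hdc was not tested. Antigen-presenting markers were higher in 4 of 5 cases, Cd74, the invariant chain of MHC class II, being at 82.3, 84.8 and 78.8 TPM in skin and 0.64, 49.3, 0 and 9.11 TPM in blood, with blood replicate 2 highest among the blood libraries. Retnlg, a resistin-like protein usually listed for neutrophils, was among the most abundant transcripts of blood eosinophils and fell from 59405, 60865, 58499.6 and 65464 to 5509, 4295 and 12288 TPM (change -3.37 ± 0.20, adjusted p = 3.69e-12), whereas S100a8, the defining transcript of neutrophils, was at or below 12.9 TPM in all 7 libraries. T, NK and B cell lists had 1 and 2 measured members, with sums of at most 9.53 TPM.

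**Figure D4:**
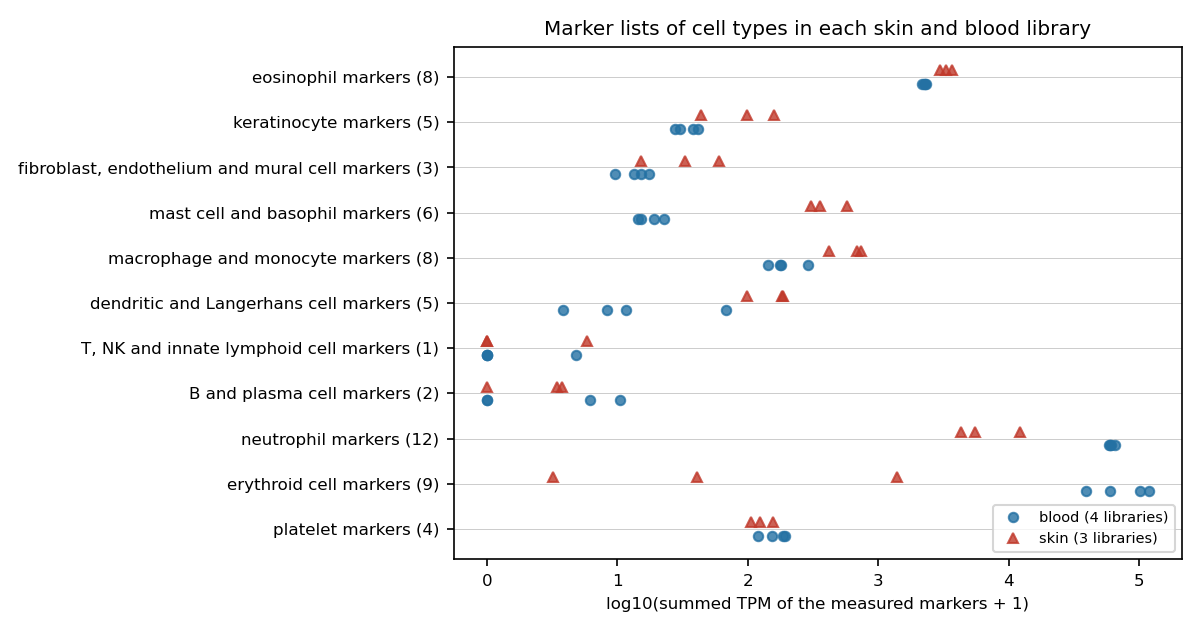
Summed TPM of the measured markers of 11 cell types, as log10(sum + 1), with 1 circle for each of 4 blood libraries and 1 triangle for each of 3 skin libraries and the number of measured markers in brackets. Erythroid markers separate the groups most, at 39167 to 119060 TPM in blood and at most 1397 TPM in skin; the neutrophil list is nearly all Retnlg.

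Skin was next compared with the mean of lung, colon and small intestine, which uses no blood library, to show where the skin libraries differed from those of other tissues. In that comparison 2139 genes (21.8%) were higher in skin and 1078 (11.0%) lower, relative to a median gene 0.21 above 0; median-ratio scaling gave 1310 and 1488. Both comparisons use the same skin libraries. Macrophage and monocyte markers were higher than in the other tissues in 6 of 8 cases and keratinocyte markers in 3 of 4, with 0 lower. These counts were 4 and 3 under median-ratio scaling. Under quantile normalization they were 5 and 3, with 1 keratinocyte marker lower. The part of such cells in the differences of skin from these tissues was not tested. Of the 2249 genes higher in skin than in blood, 1112 (49.4%) were also higher than in the other tissues and 154 (6.85%) were lower; of the 1390 lower than in blood, 541 (38.9%) were also lower and 52 (3.74%) were higher.

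Heat shock genes were higher in skin than in these tissues in 15 of 19 cases and lower in 0 by limma (0 lower at an unadjusted p under 0.05; 14 higher and 0 lower under median-ratio scaling), with summed levels of 13207 to 23028 TPM in skin, 6437 to 11024 TPM in colon, 3869 to 10518 TPM in small intestine and 1662 to 1882 TPM in lung. NF-kappaB genes were higher in 8 of 34 cases and lower in 8, but 5 and 11 under median-ratio scaling, 5 and 10 under quantile normalization, and 10 and 6 without skin replicate 4. Immediate early genes were lower in 22 of 44 cases and higher in 6, and the higher count was 3 under median-ratio scaling, under quantile normalization and without skin replicate 4. Slc6a4 had 116 ± 23.7 TPM in skin (SD, n = 3) and at most 2.65 ± 1.98 TPM in the other 6 tissues, its mean in colon (SD, n = 3), and differed from lung, colon and small intestine each (largest adjusted p = 3.30e-08). Retnla had 2679 ± 344 TPM in skin and 864 ± 372 TPM in colon (SD, n = 3 each), which did not differ in the test (adjusted p = 0.335), and at most 20.2 ± 22.7 TPM elsewhere (lung; SD, n = 3).

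Ccl8 had 77.3 ± 31.2 TPM in skin and 1.38 ± 2.39 TPM in colon (SD, n = 3 each) and was listed at 0 in the libraries of the 5 other tissues. Il1rl1 had 147 ± 7.92 TPM in skin against 33.2 ± 6.05 TPM in colon and 9.73 ± 4.75 TPM in lung (SD, n = 3 each) and 0.47 ± 0.536 TPM in small intestine (SD, n = 4), a difference of 4.04 ± 0.27 SE from their mean (adjusted p = 1.52e-11). Id2 had 2170 ± 505 TPM in skin and at most 704 ± 32.9 TPM elsewhere, in spleen (SD, n = 4). The reverse held for G0s2, at 35.4 ± 22.6 TPM in skin against 7632 ± 835 TPM in lung and 4837 ± 44.4 TPM in colon (SD, n = 3 each), a difference of -7.33 ± 0.38 (adjusted p = 7.71e-13): it was lower in skin than in blood, while its mean in lung, colon and small intestine lay above that in blood. Acod1, which makes the antimicrobial metabolite itaconate, was higher in skin than in blood, from 0.33, 0.34, 0.48 and 0.61 to 162, 179.5 and 105 TPM, and lower than in the other tissues (-2.44 ± 0.24, adjusted p = 8.03e-08), with 1070 ± 179 TPM in lung. Il1b was likewise lower than in the other tissues (-1.34 ± 0.33, adjusted p = 0.0109), a call that ended without skin replicate 4 (adjusted p = 0.149). Retnlg in skin, 7364 ± 4308 TPM (SD, n = 3), did not differ in the test from 6941 ± 925 TPM in small intestine (SD, n = 4; adjusted p = 0.865) and was below 70436 ± 4639 TPM in lung (SD, n = 3; adjusted p = 2.05e-11).

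**Figure D5:**
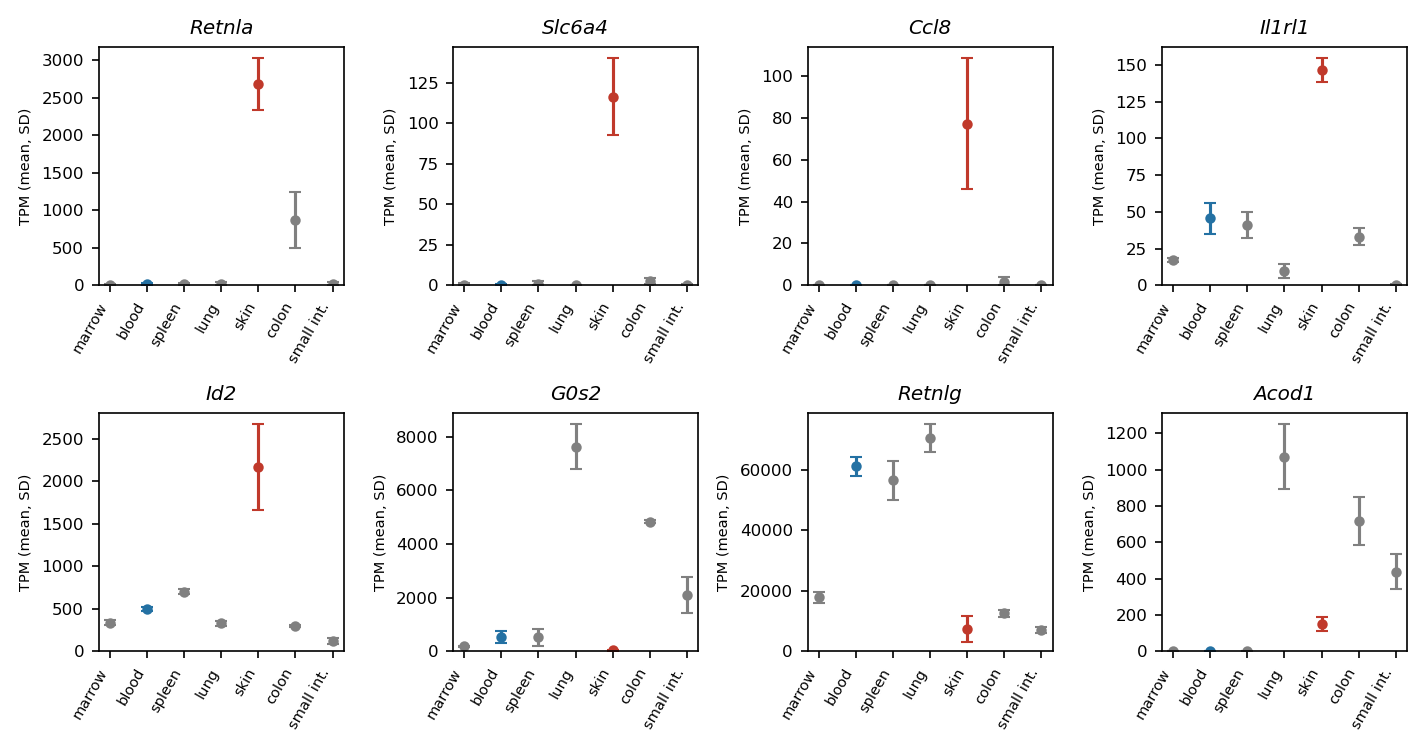
Level in TPM (mean and SD over 3 or 4 libraries) of 8 genes in total eosinophils of 7 tissues, with skin in red and blood in blue. Retnla, Slc6a4, Ccl8, Il1rl1 and Id2 have their highest mean in skin, G0s2 its lowest, and Acod1 is higher in skin than in blood but below lung, colon and small intestine.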

How the data were processed

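The authors deposited TPM for 9844 genes in 24 libraries of total eosinophils from 7 tissues; the submitters' processing notes name the build mm10 and the tools RSEM 1.3.3, STAR 2.7.5c and cutadapt 2.10, and the design text of the series gives paired reads of 150 bp. Which annotation was counted, whether by strand, and how genes were filtered is not given in the sources used here. The lowest number of libraries above 0 for any gene in the table was 3. A second table of reporter-sorted cells was not used here. TPM keeps no read totals, so depth is unknown and no interval that needs it was given. No per-sample column of the tissue table was left unused.

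Genes with at least 1 TPM in at least 3 libraries (9806) were put on the log2(TPM + 1) scale and fitted by limma 3.58.1 (R 4.3.3; lmFit, eBayes with trend) with tissue as the only term over all 24 libraries, which shared 1 estimate of the spread. Tests were two-sided, and p-values were Benjamini-Hochberg adjusted over all genes tested. Contrasts were skin minus blood and skin minus the unweighted mean of lung, colon and small intestine. Where the text gives TPM without naming libraries, values follow the order of replicates 1, 2 and 4 of skin and 1 to 4 of blood. The script was tested on simulated data.

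The genes compared, the 40 gene and marker lists and the tests were chosen with earlier results of these data known. Genes were named by rule: the 15 largest rises and falls among called genes that did not overlap and averaged 10 TPM or more in whichever group was higher, up to 4 called members per function list and 3 most abundant members per marker list. The text names part of these, and further members (such as Nfkbia, Hspa8, Ccl9, Il1rl1, Tsc22d3 and Alox15) and genes compared across tissues were chosen after their values were seen. Alternatives were pseudocounts of 0.1 and 5, other filters, median-ratio scaling, quantile normalization, haemoglobin or ribosomal protein genes left out, fewer tissues in the fit, robust eBayes, a replicate block and each replicate left out. Coordinates came from GENCODE for GRCm38, and promoter windows from RefSeq for GRCm38.p6, matched by symbol for 7962 of the 9806 genes.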

Additional observations from a re-analysis of the deposited data

Results flagged for a closer look

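In 25 of 260 named genes whose values varied, 1 blood library lay far from the other 3. Its gap to the nearest, over the whole range, passed Dixon's limit for 4 samples. The nominal rate of this limit by chance is about 1 in 20. A gene detected in only 1 blood library passes it at any level, and the genes listed last below are of this kind. The count of 25 therefore cannot be compared with that rate. Groups of 3 libraries, skin among them, were not examined this way.

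Blood replicate 4 was low for stimulus-induced genes: Egr1 had 1.55 TPM there against 40.4 to 62 TPM, Dusp1, a phosphatase of MAP kinases, 2315 against 3534 to 3790 TPM, and Cxcl2 10.8 against 33.2 to 36.3 TPM. Blood replicate 1 was high for Irak3, an inhibitor of Toll-like receptor signals (18.3 against 6.89 to 8.13 TPM), and low for Cdk6 (5.89 against 8.91 to 9.19 TPM). Blood replicate 2 was low for Ikzf2 (54.3 against 77.7 to 80.3 TPM) and Bckdha (42.5 against 56.8 to 57.1 TPM). Blood replicate 3 was low for Cd24a (1667 against 1917 to 1956 TPM) and high for Cox7a1 (24.2 against 4.5 to 5.12 TPM) and Cxcl10 (2.61 against 0 to 0.18 TPM). Each of these blood values lay on the same side of all skin values as the other blood libraries, except that the Egr1 groups overlap.

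Further genes were listed at 0 in 3 blood libraries and above 0 in 1. In blood replicate 1 these were Nkg7 (3.85 TPM), Dmkn (0.61 TPM), Il13 (0.54 TPM), Vegfa (0.1 TPM) and Col1a2 (0.09 TPM). In blood replicate 2 they were Ctss (9.71 TPM), Mt1 (2.03 TPM), S1pr1 (1 TPM), Cpa3 (0.33 TPM), Hspa1b (0.16 TPM) and Traf1 (0.13 TPM). In blood replicate 3 they were Cxcl1 (0.53 TPM) and Tnip3 (0.32 TPM), and in blood replicate 4 Fcer1a (4.44 TPM) and Jchain (2.55 TPM). Ctss, a lysosomal protease, was found in the blood library that also had the highest Lyz2 and Cd74, and its values in skin were 7.91, 21.7 and 11.4 TPM.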

How the results depend on the processing

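Over all alternatives the skin minus blood comparison gave 1613 to 2325 genes higher and 1092 to 1824 lower, against 2249 and 1390. The higher count of skin against lung, colon and small intestine, 2139, moved most, to 1310 under median-ratio scaling and 1384 under quantile normalization; the cause was not tested. Leaving out 1 skin or blood replicate gave 1853 to 2172 higher and 1092 to 1404 lower against blood. Leaving out 1 skin replicate gave 1567 to 1818 higher and 840 to 980 lower against the other tissues. With the replicate number as a term (replicate block), 2208 genes were higher and 1323 lower than in blood, and 2085 higher and 1027 lower than in the other tissues. The deviations of skin and blood libraries of the same number were nearly uncorrelated across genes (r = 0.014, -0.000476 and -0.0156). Whether such libraries shared mice or a preparation was not tested. Of 272 genes followed, 245 were called against blood, 229 of these under every alternative that was run (at most 18); 16 lost the call under at least 1, 9 others gained one, and 0 reversed. Calls that were gained include Siglecf (adjusted p = 0.0272) and Il4 (0.00539), each lower, under quantile normalization. Beside list counts whose alternatives stand in the report, these moved by over 1.5 times. Under quantile normalization, cytokines were 4 lower, apoptosis genes 9 higher, sterol genes 4 lower, unfolded protein genes 2 lower, chemokines 1 lower and NF-kappaB genes 1 lower. Without skin replicate 2, ribosomal proteins were 3 higher. Without skin replicate 4, cytokines and unfolded protein genes were each 2 lower. Cytokines were also 2 lower without blood replicate 4 and under 4 other alternatives, unfolded protein genes 0 lower where the mean had to reach 5 TPM, and activation genes 1 lower under 3 further alternatives. Sterol genes were 5 higher where only skin and blood libraries were fitted, and oxidative phosphorylation genes 17 higher without haemoglobin or without ribosomal protein genes. The unknown depth limits the genes of a few TPM, where a value of 0 may be a gene not sampled.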

Other observations

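Families read by symbol, chosen after the values were seen, gave further groups. Their counts against blood, here and below, are read beside the 22.9% higher and 14.2% lower of all genes tested. Against lung, colon and small intestine, 21.8% of all genes were higher in skin. Subunits of the Cct chaperonin, which folds actin and tubulin, were higher in skin than in blood in 7 of 7 cases (median change 1.42; 6 under quantile normalization), for example Cct3, from 50.2, 33.0, 34.6 and 56.1 to 258, 245 and 179 TPM (change 2.21 ± 0.22, adjusted p = 3.06e-09), and 6 of 7 were higher than in lung, colon and small intestine. Tubulins were higher in 6 of 9 cases, 5 under median-ratio scaling and 4 under quantile normalization. Tuba1c led them, from 135, 187, 166 and 62.6 to 793, 843 and 789 TPM. Genes with symbols of the proteasome pattern (Psma, Psmb, Psmc or Psmd and a digit), not all of them subunits, were higher in 24 of 38 cases. The higher count was 19 under median-ratio scaling and 18 under quantile normalization. Lower were 4, among them the immunoproteasome subunits Psmb8, Psmb9 and Psmb10. The cap ATPase Psmc5 rose from 33.2, 61.4, 26.4 and 35.2 to 137, 143 and 103.35 TPM. Genes named Nop or Nol, which assemble ribosomes in the nucleolus, were higher in 9 of 15 cases and lower in 1, while 65 of 81 cytosolic ribosomal proteins were lower; Nop58 rose from 15.2, 15.9, 7.42 and 23.3 to 78.3, 104 and 68.0 TPM.

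All 5 Ifitm genes were higher in skin than in blood under each of the 3 scalings, whereas Isg15, a core interferon-induced gene, was at 33.4, 16.6 and 52.5 TPM in skin and 40, 37.1, 29.8 and 50.6 TPM in blood and did not pass the test (adjusted p = 0.617). Kruppel-like factors were lower in 6 of 10 cases and higher in 2, with Klf11 at 17.8, 13.8, 15.3 and 12.4 TPM in blood and 3.23, 0.86 and 5.81 TPM in skin. Subunits of the vacuolar proton pump were higher in 7 of 14 cases, but in 4 under median-ratio scaling, where 2 were lower; Atp6v0c rose from 189, 179.6, 203 and 213 to 753, 834 and 469 TPM.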
